A study of Mus musculus with 3 samples.

Results

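The 10 genes described here carry the costimulation signals that pass between B cells or myeloid cells and T cells: Cd40, Cd80, Cd86, Cd83 and Icosl, which antigen-presenting cells use, and Cd28, Cd40lg, Tnfsf8, Tnfsf11 and Tnfsf4. They were chosen by symbol, a rule that uses no measured value, and each matched 1 of the 30905 gene rows of the deposited count tables. Their levels were read in CD45+ leukocytes (CD45 being the surface protein that all leukocytes share) sorted from the colon of C57BL/6 mice and sequenced as 10x Genomics 3′ libraries. The T3 library is labelled as high-grade and the T1 library as low-grade intraepithelial neoplasia, a stage before invasive cancer, and the C library as normal colon of healthy mice. T3 and T1 mice had received azoxymethane (AOM), a carcinogen, at 12 mg/kg, then 3 cycles of 7 days of 2.5% dextran sodium sulfate (DSS), which injures the colon lining, and 14 days of water. The labels give an age of 6 to 8 weeks at the start of the model and no AOM or DSS for C, so neoplasia and the AOM/DSS course cannot be told apart in a comparison with C. Each group is 1 library, and the labels do not give the number of mice in it. No difference between libraries therefore has a replicate check, no p-value was computed for one, and the 95% intervals printed cover counting error only.

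T cells that recognise antigen need a further signal to respond, and the best known one passes from CD80 and CD86 on the presenting cell to CD28 on the T cell. CD40 ligand, made by activated helper T cells, signals back through CD40 to B cells, dendritic cells and macrophages, which is required for germinal centres and antibody class switching. ICOS ligand engages ICOS on helper T cells, and the ligands CD30L (Tnfsf8), RANKL (Tnfsf11) and OX40L (Tnfsf4) belong to the same tumour necrosis factor family as CD40 ligand. In the gut, RANKL acts on the epithelium over lymphoid follicles and on myeloid cells, and its receptor is encoded by Tnfrsf11a.

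The deposited tables held 5779, 8566 and 7903 barcodes in T3, T1 and C, and 3287, 6143 and 6003 of them passed the filters, with a median of 3828, 5272 and 4934 unique molecular identifiers (UMIs, each standing for a captured transcript). Barcodes were sorted into gates by marker UMIs, since no cell annotation by the authors was used here. The B gate (at least 3 UMIs of B-cell marker genes, among them Cd79a, Cd79b and Ms4a1, and no CD3 UMI) held 768 barcodes in T3, 2818 in T1 and 2513 in C. Within it, the germinal centre gate, with at least 2 of 8 germinal centre markers, held 11, 119 and 159. The CD3-positive gate held 1754, 2013 and 2027 barcodes. It was divided into barcodes with a Foxp3 UMI (68, 264 and 60), then with an Il17a UMI (26, 62 and 17), and then by Cd4 and Cd8. Other barcodes had Cd4 without Cd8 (513, 598 and 364) or Cd8 without Cd4 (404, 390 and 640). The rest had neither or both (743, 699 and 946) and are called other CD3-positive barcodes. How many of these had both is not given here. The myeloid gate, with at least 3 of 17 mononuclear phagocyte markers, held only 10, 18 and 25 barcodes. Barcodes with a CD3 UMI and at least 2 UMIs of the B-cell markers (183, 628 and 814) may be doublets and were set aside. The labels call the mice male, but Xist was found in 79.0%, 86.4% and 87.4% of kept barcodes and Y-linked transcripts in 1, 1 and 0 barcodes. Kept barcodes that libraries shared by sequence numbered 17 between T3 and T1, 13 between T3 and C and 21 between T1 and C. Levels are given as CPM, that is UMIs scaled to a total of 1000000 in the gate. A member was counted as higher or lower between libraries when its CPM differed at least 2-fold, it had at least 20 UMIs over both libraries and its interval excluded equality. In these counts a lower number of cells expressing a gene and less RNA per cell cannot be told apart. Barcodes over 20% mitochondrial were set aside too, and in those 7.36% of genes were called higher in T3 than in C. In T3, 1256 barcodes were set aside for haemoglobin transcripts, against 0 in T1 and 1 in C. The 7 neutrophil markers reached 1068 CPM in CD3-positive barcodes of T3, against 23.7 in T1 and 16.1 in C.

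The UMIs of most members lay mainly in either the B or the CD3-positive gate. Of the UMIs found in the gates, the B gate held 95.04% of 1795 for Cd40, 90.3% of 3525 for Cd86, 93.4% of 25198 for Cd83 and 91.3% of 2178 for Icosl. The CD3-positive gate held 99.1% of 12779 for Cd28, 99.5% of 1855 for Cd40lg, 99.1% of 3054 for Tnfsf8 and 98.6% of 1383 for Tnfsf11. These shares depend on gate size, and the myeloid gate was small. In T1 and C, Cd40 stood at 116 and 84.4 CPM in myeloid barcodes, above 46.1 and 67.5 CPM in B barcodes outside the germinal centre gate. Cd86 stood at 171 and 237 CPM, above 109 and 91.1 CPM. For Cd40 in C the ratio was 1.25 [0.769, 1.93], an interval that includes equality. In T3 neither Cd40 nor Cd86 was higher in myeloid barcodes. The other 2 members were close to absent from the gates: Cd80 had 43 UMIs in all. Tnfsf4, the OX40 ligand of activated presenting cells, had 15, of which 5, 5 and 3 were in CD3-positive barcodes of T3, T1 and C, 2, 0 and 0 in B barcodes and 0 in myeloid barcodes. No annotated gene overlaps any of the 10 in GENCODE M21 (GRCm38), so their counts have no overlapping partner.

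**Figure D1:**
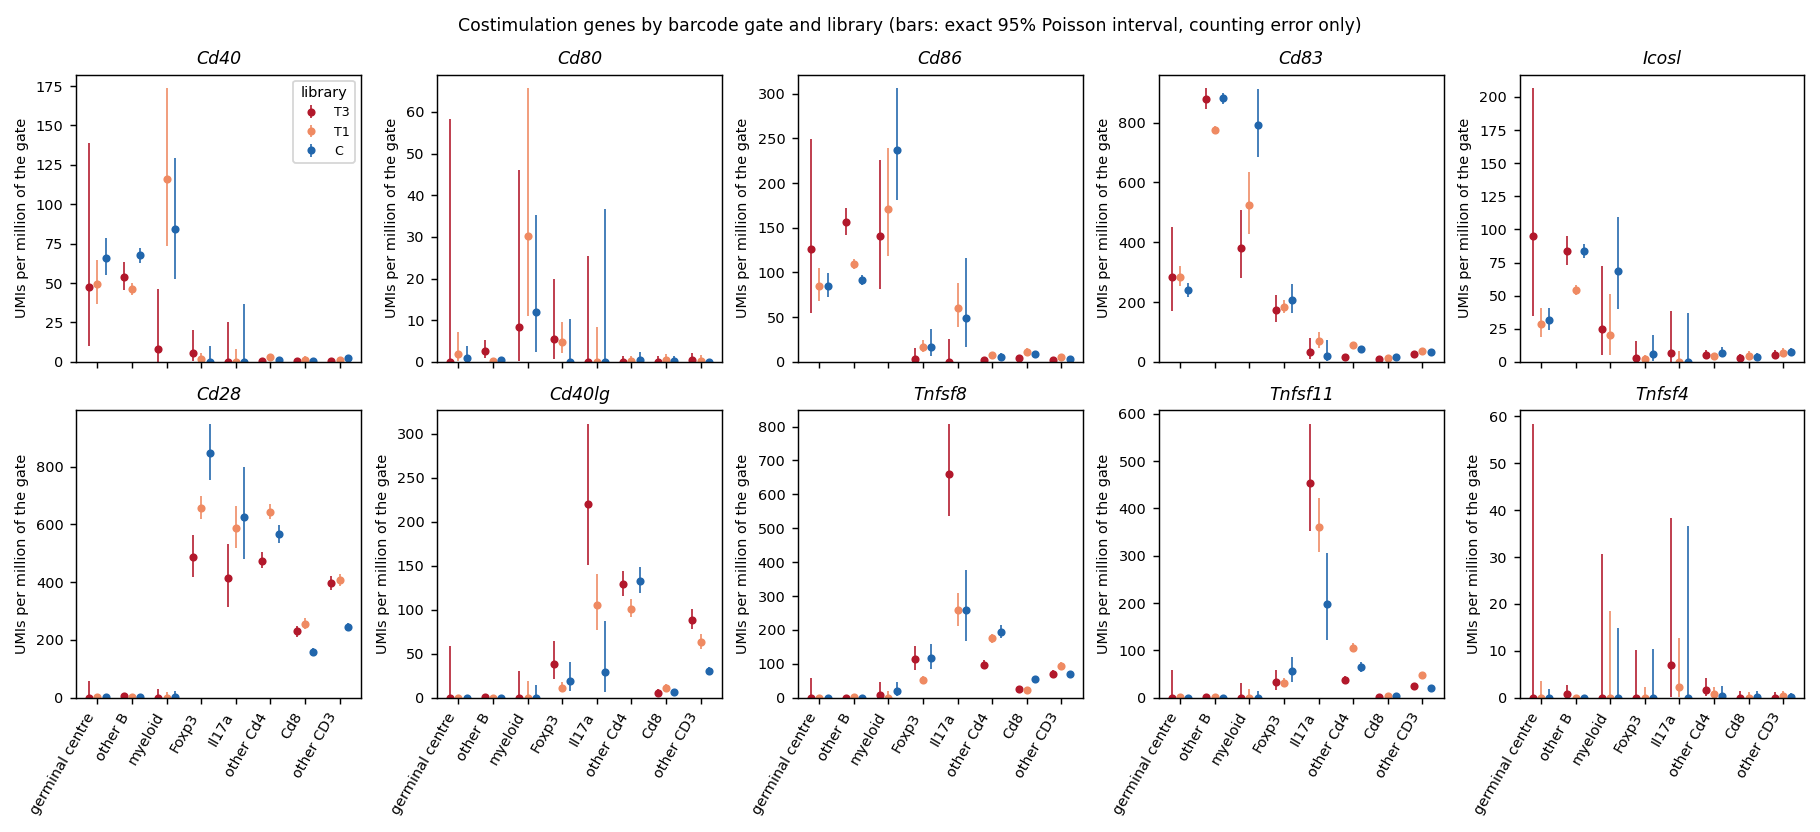
Levels of the 10 members (CPM; each panel has its own axis) in 8 gates, with 1 point for each library (T3, T1, C) and an exact 95% Poisson interval that covers counting error only. Cd86 and Cd83 are high in the B and myeloid gates, Cd40 in the B gates and in myeloid barcodes of T1 and C, and Icosl mainly in the B gates. Cd28, Cd40lg, Tnfsf8 and Tnfsf11 are high in CD3-positive gates. Tnfsf11 and Tnfsf8 are highest in the Il17a gate, for Tnfsf8 in C largely from 1 barcode.

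Among B barcodes outside the germinal centre gate, the B7 ligand Cd86 differed most between T3 and C of the 4 B-borne members. These are the members with most of their gated UMIs in the B gate, and none reached 2-fold there in any comparison. Cd86, which binds CD28 and CTLA-4, stood at 156 CPM in T3 (421 UMIs), 109 CPM in T1 (1489 UMIs) and 91.1 CPM in C (1016 UMIs). The order was thus T3 over T1 over C, with a ratio of 1.71 [1.53, 1.92] for T3 over C, 1.199 [1.11, 1.30] for T1 over C and 1.43 [1.28, 1.59] for T3 over T1. Because T3 was the shallowest library, each barcode was also drawn down to 1000 UMIs, which left out 86, 64 and 45 shallower barcodes here and 164, 67 and 73 in the CD3-positive gate. Cd86 was then found in 13.7% of T3 barcodes, 11.3% of T1 barcodes and 8.19% of C barcodes, in the same order, whereas before drawing down it was found in 31.2%, 34.6% and 29.7%. CD3-positive barcodes, drawn down in the same way, had Cd86 in 0.377%, 1.28% and 0.614%. Erythroid markers in the B barcodes outside the germinal centre gate stood at 348 CPM in T3, 3.89 in T1 and 3.23 in C (0 of 4 at 0 in each), and neutrophil markers at 41.5, 0.440 and 0.897 CPM (2, 4 and 2 of 7 at 0). Their part in the Cd86 order was not tested.

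Cd40, the receptor for CD40 ligand, was lower in both neoplasia libraries in the same barcodes, at 53.8 CPM in T3, 46.1 CPM in T1 and 67.5 CPM in C. The ratio was 0.796 [0.662, 0.952] for T3 over C and 0.682 [0.613, 0.759] for T1 over C, while T3 and T1 did not part beyond counting error (1.17 [0.967, 1.40]). Icosl, the ligand of ICOS, was low by CPM in T1 alone, at 83.4 CPM in T3, 54.0 CPM in T1 and 83.5 CPM in C. With each barcode drawn to 2000 UMIs, T3 lay between T1 and C. Icosl was then in 12.4%, 8.90% and 14.9% of barcodes with Cd86 in T3, T1 and C, and in 12.1%, 11.4% and 15.4% of those without. The T3 intervals overlapped those of T1 and C. The CPM ratio of Icosl was 0.999 [0.860, 1.16] for T3 over C and 0.647 [0.586, 0.713] for T1 over C. Cd83, a surface protein of activated B cells and dendritic cells that stabilises MHC class II and CD86 on the membrane, was at 879 CPM in T3, 775 CPM in T1 and 881 CPM in C. Its largest ratio in these barcodes was 1.13 [1.08, 1.19] for T3 over T1. After drawing down, 46.8%, 47.6% and 49.7% of barcodes in T3, T1 and C had a Cd83 UMI.

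By the size rule, 1 of 5 members was higher in T3 than in C in these B barcodes (4.2% of all genes were called higher) and 1 of 6 in T1 than in C (0.704%), with 0 of 5 past it in either direction between T3 and T1 (5.96%). The whole B gate gave the same counts, against 4.22%, 0.654% and 6.04% of genes. Both calls came from T-cell genes at a low level. Cd28 had 17 UMIs in T3 and 31 in C, and Tnfsf8 had 16 UMIs in T1 and 4 in C. The 22 genes of the CD40 and NF-kappaB list, which holds the adaptors and transcription factors that act below CD40, had 0 members past the rule in any of the 3 comparisons. Their median log2 ratio was 0.12 for T3 over C, against 0.09 over all genes tested, and −0.04 for T1 over C, against −0.09. Genes that respond to tissue handling moved in the same barcodes: of the immediate early genes, 4 of 12 were lower in T3 than in C and 5 of 13 in T1 than in C, with medians of −0.73 and −0.79, where 2.02% and 1.84% of all genes were lower. Of 6 heat shock genes, 0 passed the rule in T3 over C and 4 were lower in T1 than in C. Their part in the Cd40, Cd86 and Icosl ratios was not tested.

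**Figure D2:**
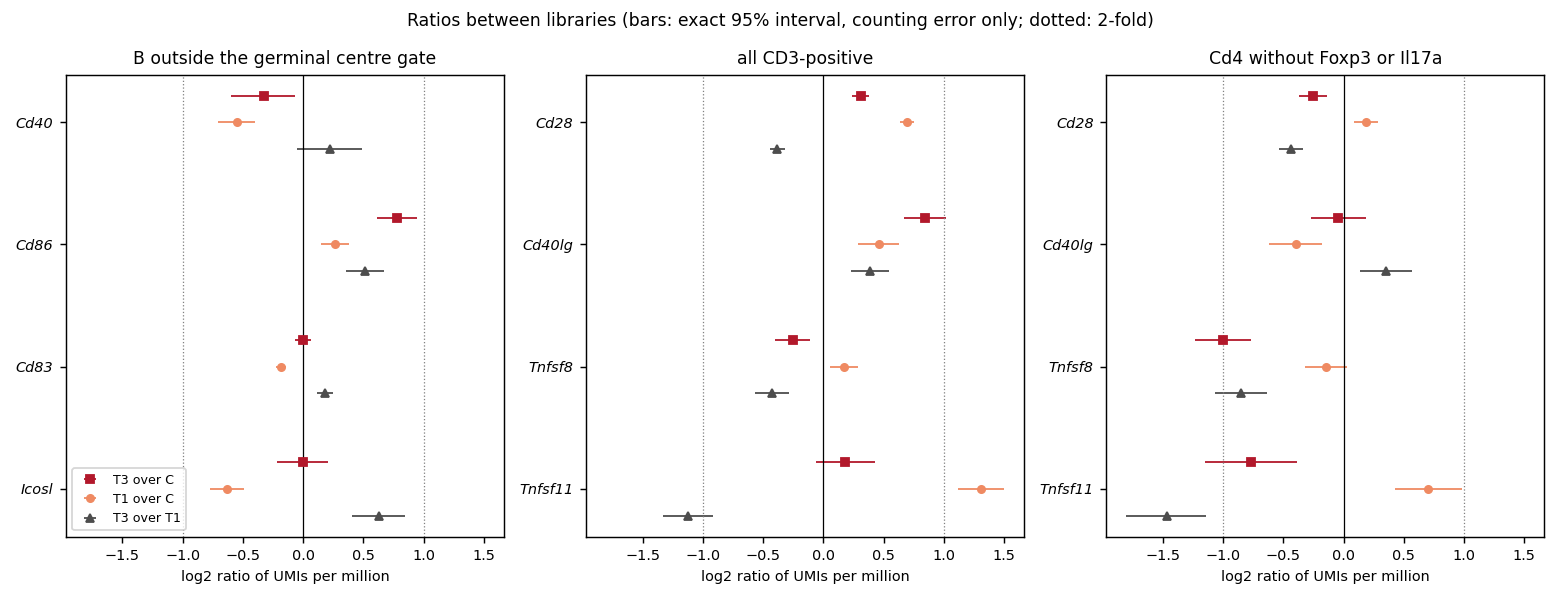
Log2 ratios of CPM between libraries (T3 over C, T1 over C, T3 over T1) for the B-borne members outside the germinal centre gate and for the T-borne members in all CD3-positive barcodes and in Cd4 barcodes without Foxp3 or Il17a; bars are exact 95% intervals for counting error only, and dotted lines mark 2-fold. Cd86 lies to the right in T3 over C without reaching 2-fold, Tnfsf11 passes 2-fold in T1 over C among all CD3-positive barcodes, and Tnfsf8 lies at the 2-fold line in T3 over C among Cd4 barcodes.

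Germinal centre barcodes carried less Cd83 and Icosl than other B barcodes. Germinal centres are the sites where B cells divide and mutate their receptors with help from T cells. Cd83 stood at 285, 284 and 240 CPM in the germinal centre gate of T3, T1 and C, against 879, 775 and 881 CPM in other B barcodes. It was thus lower in each library, but the T3 value rests on 18 UMIs in 3 of 11 barcodes, 44.4% of them from 1 barcode. In the edgeR test over the 3 libraries, with library as a block, Cd83 fell by 1.99 ± 0.18 (SE) on the log2 scale, with an adjusted p of 2.556e-26. For these 2 gates the test took its spread almost wholly from other genes. Its p-values therefore do not measure a member's own spread over the 3 libraries. Icosl stood at 94.9, 28.5 and 31.8 CPM, against 83.4, 54.0 and 83.5 CPM in other B barcodes. It fell by 1.39 ± 0.21 (SE, edgeR adjusted p 5.376e-10), although the T3 value, from 6 UMIs in 2 of 11 barcodes, lay above that of other B barcodes.

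Cd86 stood at 127, 84.6 and 84.8 CPM in germinal centre barcodes, against 156, 109 and 91.1 CPM in other B barcodes. Its edgeR log2 fold change of −0.55 ± 0.18 (SE) had an adjusted p of 0.006409. That call was lost with DESeq2 (adjusted p 0.05584) and without T1 (edgeR adjusted p 0.2964). Cd40 stood at 47.5, 49.2 and 66.1 CPM, against 53.8, 46.1 and 67.5 CPM, and did not pass (log2 fold change −0.29 ± 0.19, edgeR adjusted p 0.2216). Of the 4 members tested, 3 were lower in the germinal centre gate, where 23.7% of all genes tested passed as lower. These fold changes use edgeR's TMM scaling and are not plain ratios of CPM. Between libraries, Icosl alone passed the size rule within the germinal centre gate, in T3 over C (ratio 2.99 [1.06, 6.89]; 6.56% of genes called higher) and in T3 over T1 (3.33 [1.13, 8.15]; 5.57%). Both calls rest on those 6 UMIs and were lost with a mitochondrial limit of 10%, at log2 ratios of 0.28 and 0.36. Between T1 and C, 0 of 4 members passed (4.31% in either direction).

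Myeloid barcodes were few, and Cd80 reached its highest CPM there. Cd80, the other B7 ligand, had 1 UMI (8.28 CPM) in T3, 6 UMIs (30.2 CPM) in T1 and 3 UMIs (12.1 CPM) in C in the myeloid gate, against 7, 2 and 4 UMIs (2.59, 0.147 and 0.359 CPM) in the far larger gate of other B barcodes. These values rest on 1, 6 and 3 UMIs against 7, 2 and 4, and no test is given for Cd80, which entered the comparison through the few myeloid UMIs. Cd83 was lower than in other B barcodes (381, 523 and 792 CPM against 879, 775 and 881 CPM; log2 fold change −0.86 ± 0.23, edgeR adjusted p 0.01483), a call lost without T1 (edgeR adjusted p 0.06557). Icosl was lower too, at 24.9, 20.1 and 68.4 CPM (log2 fold change −1.13 ± 0.36, edgeR adjusted p 0.03595), and lost its call with DESeq2 (adjusted p 0.05812), without the library block (edgeR adjusted p 0.05442) and without T1 (edgeR adjusted p 0.1397). Of the 5 members that entered the edgeR test, 2 were thus lower, where 13.7% of all genes passed as lower and 15.7% as higher.

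Cd86 in the myeloid gate had 17 UMIs in T3 (141 CPM), 34 in T1 (171 CPM) and 59 in C (237 CPM), and it did not pass against other B barcodes (log2 fold change 0.46 ± 0.29, edgeR adjusted p 0.2651), though it did without T3 (edgeR adjusted p 0.03405). Cd40 had 1 UMI in T3 (8.28 CPM), 23 in T1 (116 CPM) and 21 in C (84.4 CPM). In T1 and C, 30.4% and 38.1% of its UMIs came from 1 barcode. It did not pass against other B barcodes (log2 fold change 0.15 ± 0.44, edgeR adjusted p 0.8358). The T3 value was low against both others, with ratios of 0.0981 [0.00237, 0.610] to C and 0.0716 [0.00174, 0.441] to T1. The make-up of the gate moved with it: 7 of 10 barcodes in T3 had more macrophage than dendritic cell markers, against 5 of 18 in T1 and 11 of 25 in C, and its part in the Cd40 ratio was not tested. In T1 and C the barcodes with more dendritic markers held 11 and 19 of the Cd40 UMIs. By the size rule, 2 of 4 members, Cd40 and Cd83, were lower in T3 than in C (6.53% of genes called lower), 1 of 4, Icosl, in T1 than in C (5.86%) and 1 of 3, Cd40, in T3 than in T1 (6.04%). The Icosl call was lost without the richest barcode.

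The receptor Cd28, which almost every naive T cell carries, was found throughout the CD3-positive barcodes and was more abundant in both neoplasia libraries. It stood at 373 CPM in T3, 487 CPM in T1 and 301 CPM in C, a ratio of 1.24 [1.18, 1.30] for T3 over C and 1.62 [1.55, 1.69] for T1 over C. Drawn down to 1000 UMIs, 30%, 33.0% and 21.1% of CD3-positive barcodes had a Cd28 UMI, against 0.293%, 0.254% and 0.324% of B barcodes, whose median depth was 3680, 5041 and 4676 UMIs against 4766, 6190 and 5727. The higher level lay in the Cd8 barcodes (229, 257 and 160 CPM) and in the other CD3-positive barcodes (397, 408 and 246 CPM). Among the Cd4 barcodes it was 475, 644 and 565 CPM, so T3 was lower than C there (ratio 0.840 [0.776, 0.910]). Among Foxp3 barcodes, the regulatory T cells, it was lowest in T3, at 487, 657 and 846 CPM, with a ratio of 0.575 [0.475, 0.695] for T3 over C. No Cd28 ratio in a CD3-positive gate reached 2-fold. Cd4 barcodes, which carried more Cd28 than Cd8 barcodes in each library, were 29.2% of CD3-positive barcodes in T3, 29.7% in T1 and 17.96% in C.

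Cd40lg, the ligand of CD40, followed the same division of the Cd4 and other barcodes. Over all CD3-positive barcodes it stood at 75.9 CPM in T3, 58.1 CPM in T1 and 42.3 CPM in C, with a ratio of 1.79 [1.59, 2.02] for T3 over C and 1.37 [1.22, 1.54] for T1 over C. Among Cd4 barcodes without Foxp3 or Il17a, which held 321, 397 and 303 of its UMIs, it stood at 129, 101 and 133 CPM. T3 and C did not part there (0.971 [0.827, 1.14]), and T1 was lower than C (0.760 [0.653, 0.885]). After drawing down, 11.3%, 11.0% and 10.5% of these barcodes had a Cd40lg UMI, with intervals that overlapped.

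Other CD3-positive barcodes, which had neither or both of Cd4 and Cd8 and no Foxp3 or Il17a UMI, held the clearest Cd40lg difference. They had 246 UMIs (88.9 CPM) in T3, 230 UMIs (63.5 CPM) in T1 and 156 UMIs (30.3 CPM) in C. Both neoplasia libraries passed the size rule there, at 2.93 [2.39, 3.61] for T3 over C and 2.09 [1.70, 2.58] for T1 over C. After drawing down, 8.49%, 6.66% and 3.28% of these barcodes had a Cd40lg UMI, against 0.293%, 0.0363% and 0.0405% of B barcodes. The gamma-delta T-cell receptor gene Trdc ran the other way in this gate, at 77.4 CPM in T3, 179 CPM in T1 and 395 CPM in C, and its part in the Cd40lg ratios was not tested. Of 7 members, 1 was higher in T3 than in C (5.49% of genes called higher) and 2 in T1 than in C (1.55%), the other being Tnfsf11. Between T3 and T1, 1 of 7 was lower, Cd86 (6.6%).

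**Figure D3:**
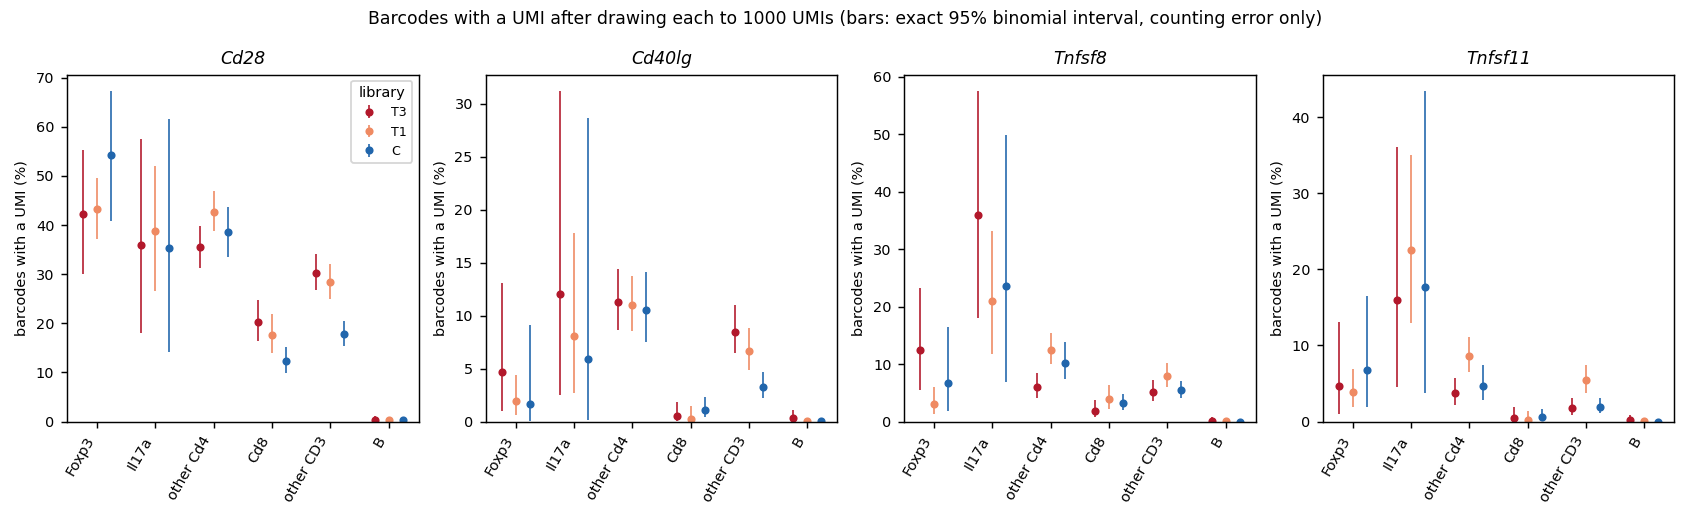
Share of barcodes with a UMI of Cd28, Cd40lg, Tnfsf8 and Tnfsf11 after each barcode was drawn to 1000 UMIs, in the 5 CD3-positive gates and in B barcodes, with 1 point for each library (T3, T1, C) and an exact 95% binomial interval that covers counting error only. B barcodes, which give the background level, lie near 0 in every panel, and Tnfsf11 in T1 lies above T3 and C among Cd4 and other CD3-positive barcodes.

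Tnfsf11 and Tnfsf8, which encode RANKL and CD30 ligand, were the members whose levels were most alike across the gates, with a Pearson r of 0.92 over 24 points (8 gates in 3 libraries, which share libraries and depth). Promoter sequences of 4 of the 10 members were in the RefSeq table used here (GRCm38.p6), and those of this pair are shown, from 250 bases before to 50 bases after the annotated start, 5′ to 3′ on the gene's strand. Capitals mark matches to the NFAT core GGAAA and to TATAAA, read on either strand.

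Tnfsf8, chr4:63861235-63861534, minus strand: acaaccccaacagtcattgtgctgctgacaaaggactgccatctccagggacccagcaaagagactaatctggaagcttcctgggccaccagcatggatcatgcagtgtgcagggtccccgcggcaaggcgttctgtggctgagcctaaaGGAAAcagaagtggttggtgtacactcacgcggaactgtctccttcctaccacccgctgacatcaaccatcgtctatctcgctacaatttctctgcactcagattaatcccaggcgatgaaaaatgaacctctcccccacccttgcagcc
Tnfsf11, chr14:78307994-78308293, minus strand: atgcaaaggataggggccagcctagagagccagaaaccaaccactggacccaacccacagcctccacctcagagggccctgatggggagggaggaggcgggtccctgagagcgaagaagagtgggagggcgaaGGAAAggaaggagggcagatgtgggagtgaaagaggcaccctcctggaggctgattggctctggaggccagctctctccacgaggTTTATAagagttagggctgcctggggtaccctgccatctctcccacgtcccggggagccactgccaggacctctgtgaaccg

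The motifs searched, on both strands, were AP-1 (TGANTCA), the NFAT core (GGAAA), the ROR half-site (AGGTCA), an NF-kappaB motif and the TATA motif (TATAAA), and the matches found overlap no other match. The Tnfsf8 window held 1 match, to GGAAA, at position -100 from the start. The Tnfsf11 window held GGAAA at position -117 and TATAAA, on the opposite strand, at position -32. Of all 32851 promoter windows of 300 bases, 61.3% held the NFAT core, 13.6% the TATA motif, 7.81% the AP-1 motif, 1.47% the NF-kappaB motif and 16.3% the ROR half-site. A match describes letters only.

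Of the 8 members with at least 20 UMIs over T1 and C, Tnfsf11 had the largest ratio of T1 over C in all CD3-positive barcodes, with 247 UMIs (29.8 CPM) in T3, 808 UMIs (65.0 CPM) in T1 and 308 UMIs (26.3 CPM) in C. T1 was high and the other libraries lay close together: the ratio was 2.47 [2.17, 2.83] for T1 over C, 1.14 [0.956, 1.35] for T3 over C and 0.459 [0.396, 0.530] for T3 over T1. After drawing down, 2.39%, 5.70% and 2.30% of barcodes had a Tnfsf11 UMI, against 0.147%, 0.109% and 0% of B barcodes. In C this was 0 of 2468 B barcodes, which allows a share of up to 0.149%. The higher T1 level was found among Cd4 barcodes (38.3, 106 and 65.1 CPM in T3, T1 and C, with 1.63 [1.34, 1.98] for T1 over C). It was also found among other CD3-positive barcodes (24.6, 47.8 and 20.8 CPM, with 2.30 [1.79, 2.95]). In Cd8 barcodes Tnfsf11 had 6, 11 and 13 UMIs. T1 also had a larger share of Il17a barcodes, the gate richest in Tnfsf11, at 1.48%, 3.08% and 0.839% of CD3-positive barcodes in T3, T1 and C. Myeloid markers in CD3-positive barcodes were likewise highest in T1 (48.3, 206 and 83.7 CPM, with 6, 3 and 3 of 17 markers at 0), and their part in the Tnfsf11 ratio was not tested.

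Over all CD3-positive barcodes, 1 of 8 members was higher in T1 than in C (2.65% of genes called higher), 1 of 8, Cd86, was lower in T3 than in C (10.5% called lower), and 4 of 8 were lower in T3 than in T1 (7.35%). Of those 4, Tnfsf11 is a T-cell gene, and the others were Cd40, Cd86 and Cd83. Cd86 had 22 UMIs in T3, 135 in T1 and 75 in C, and B-cell markers in the same barcodes stood at 17.5, 41.4 and 43.3 CPM. Immediate early genes were lower too, 7 of 13 in T3 than in C and 4 of 13 in T1 than in C (10.5% and 3.74% of all genes), and their part was not tested. In the 1439, 1881 and 1942 CD3-positive barcodes without a neutrophil marker UMI (an alternative chosen after seeing the data) the same members passed the rule in each comparison, and Tnfsf11 in T1 over C was at 1.31 on the log2 scale, against 1.31 in all barcodes.

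Tnfsf8, the CD30 ligand, was lower in T3 than in C among other Cd4 and Cd8 barcodes. Among Cd4 barcodes outside the Foxp3 and Il17a gates it stood at 97.1 CPM in T3 (241 UMIs), 175 CPM in T1 (688 UMIs) and 194 CPM in C (442 UMIs). T3 was low, with a ratio of 0.4997 [0.425, 0.586] to C, at the edge of the size rule, and 0.554 [0.476, 0.642] to T1, and 5.94%, 12.5% and 10.2% of barcodes had a UMI after drawing down. The call against C was lost under 6 alternatives, in all of which T3 stayed lower, with a log2 ratio of −0.91 in the mildest. Cd8 barcodes had 26.5 CPM in T3, 23.8 CPM in T1 and 54.9 CPM in C, a ratio of 0.484 [0.362, 0.640] for T3 over C and 0.435 [0.325, 0.575] for T1 over C. There 18.5% of the C UMIs came from 1 barcode, and after drawing down 1.799%, 3.90% and 3.16% of barcodes had a UMI, so no order is read from the shares. The log2 ratios of all genes in Cd8 barcodes were shifted by −0.22 for T3 over C and −0.24 for T1 over C by the median-ratio method, and relative to that shift Tnfsf8 was at −0.83 and −0.96, so that both calls were lost. In the Cd4 gate, 2 of 6 members were lower in T3 than in C (6.26% of genes called lower), 3 of 7 in T3 than in T1 (6.85%) and 0 of 7 passed between T1 and C (2.89% in either direction). In the Cd8 gate, 2 of 6 were lower in T3 than in C (12.8%), 1 of 7 in T1 than in C (6.58%) and 1 of 6 in T3 than in T1 (4.09%). These were Tnfsf8 and Cd86 in T3 over C, Tnfsf8 in T1 over C and Cd86 in T3 over T1.

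In the Cd4 gate Cd83 was lower in T3 as well, at 16.1, 56.1 and 42.2 CPM in T3, T1 and C (0.382 [0.257, 0.558] for T3 over C and 0.287 [0.200, 0.404] for T3 over T1), and Tnfsf11 was lower in T3 than in T1 (0.362 [0.286, 0.453]). Neutrophil markers in these Cd4 barcodes were at 918, 10.7 and 7.92 CPM. In barcodes without them the calls of Cd83 and Tnfsf11 stood, and Tnfsf8 in T3 over T1 passed as well. The Cd83 call against C was lost when mixed barcodes were counted as CD3-positive, at a log2 ratio of −0.88.

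Il17a barcodes, the cells that make interleukin 17A, carried the most Tnfsf11. Tnfsf11 stood at 454 CPM in T3 (66 UMIs in 15 of 26 barcodes), 361 CPM in T1 (157 UMIs in 24 of 62) and 198 CPM in C (20 UMIs in 7 of 17), against 38.3, 106 and 65.1 CPM in other Cd4 barcodes. Tnfsf11 was thus higher in each library, and the ratio within T3, T1 and C was 11.9, 3.41 and 3.05. The Il17a gate did not require Cd4. Its barcodes with Cd4 and no Trdc held 32, 122 and 6 Tnfsf11 UMIs in T3, T1 and C (380, 371 and 107 CPM). Those with Trdc held 1, 3 and 8 UMIs, and those with neither held 33, 32 and 6 (787, 321 and 308 CPM). In the edgeR test over the 3 libraries, which used the whole Il17a gate, Tnfsf11 rose by 2.07 ± 0.29 (SE) on the log2 scale, with an adjusted p of 0.0001324. Cd86 had 0, 26 and 5 UMIs in the Il17a gate of T3, T1 and C (0, 59.8 and 49.6 CPM). In other Cd4 barcodes it stood at 2.02, 7.65 and 5.72 CPM. It entered the comparison largely through the Il17a barcodes, so no test is given for it, and without T1 it had too few UMIs to enter. Mononuclear phagocyte markers stood at 193, 375 and 228 CPM in Il17a barcodes (15 of 17 at 0 in each library), against 35.1, 160 and 87.1 CPM in other Cd4 barcodes, and their part in the Cd86 difference was not tested. Tnfsf8 stood at 661, 258 and 258 CPM, against 97.1, 175 and 194 CPM in other Cd4 barcodes, and did not pass (log2 fold change 1.02 ± 0.32, edgeR adjusted p 0.07192), though it did without T1 (edgeR adjusted p 0.002425) and without the filter on low counts (edgeR adjusted p 0.006905). Of the 6 members that entered the edgeR test, Tnfsf11 was thus higher and none lower, leaving Cd86 aside, where 3.73% of genes passed as higher. Cd40lg (edgeR adjusted p 0.7841), Cd28 (0.4972) and Cd83 (0.9876) did not pass.

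Within the Il17a gate, 3 of 4 members were higher in T3 than in C (7.96% of genes called higher): Cd40lg, Tnfsf8 and Tnfsf11. Cd40lg had 32 UMIs in T3 (220 CPM), 46 in T1 (106 CPM) and 3 in C (29.8 CPM), with a ratio of 7.41 [2.32, 37.8] for T3 over C. Tnfsf8 had 96, 112 and 26 UMIs, with 2.56 [1.65, 4.12] for T3 over C and 2.57 [1.93, 3.40] for T3 over T1, but 80.8% of the C UMIs came from 1 barcode. The Tnfsf11 ratio of 2.29 [1.37, 3.99] for T3 over C lost its call, at a log2 ratio of 0.87, in barcodes without neutrophil markers. In T1, 1 of 6 members, Cd40lg, was higher than in C (3.63%). T3 had Cd40lg and Tnfsf8 higher than T1 (2 of 6; 6.68%) and Cd86 lower (1 of 6; 3.54%), and the Cd40lg call was lost without the richest barcode, at 0.65 on the log2 scale. The cells differed too: 3 of 26 barcodes in T3, 1 of 62 in T1 and 4 of 17 in C had a Trdc UMI, and 12, 47 and 10 had Cd4 and no Trdc. Cd40lg was found in 6 of those 12 Cd4 barcodes in T3, 19 of 47 in T1 and 3 of 10 in C, and in 0 of the Trdc barcodes of any library.

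Foxp3 barcodes carried less Cd40lg and more Cd83 than other Cd4 barcodes in every library. Cd40lg stood at 38.7, 11.6 and 19.5 CPM in T3, T1 and C, against 129, 101 and 133 CPM, and fell by 2.80 ± 0.23 (SE) on the log2 scale (edgeR adjusted p 2.49e-06). Cd83 stood at 174, 185 and 207 CPM, against 16.1, 56.1 and 42.2 CPM, and rose by 2.11 ± 0.22 (SE, edgeR adjusted p 1.901e-05). After drawing down, 7.81%, 11.5% and 10.2% of Foxp3 barcodes had a Cd83 UMI, against 1.64%, 5.91% and 2.49% of other Cd4 barcodes. In C, 47.3% of the Cd83 UMIs of the Foxp3 gate came from 1 barcode. Mononuclear phagocyte markers moved with Cd83, at 373, 787 and 416 CPM in Foxp3 barcodes (13, 10 and 15 of 17 markers at 0) against 35.1, 160 and 87.1 CPM in other Cd4 barcodes (10, 4 and 8 at 0). A neutrophil marker UMI was found in 22.1%, 23.5% and 20% of Foxp3 barcodes against 16.96%, 4.35% and 3.30% of other Cd4 barcodes. The neutrophil markers summed to 55.3, 112 and 64.2 CPM in Foxp3 barcodes (4, 0 and 6 of 7 at 0) against 918, 10.7 and 7.92 CPM in other Cd4 barcodes (0, 1 and 4 at 0). The part of either list in the Cd83 difference was not tested.

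Tnfsf8 and Tnfsf11 were lower in Foxp3 barcodes, with edgeR log2 fold changes of −1.08 ± 0.25 (adjusted p 0.01046) and −1.21 ± 0.27 (adjusted p 0.008683). Both calls were lost without T1, at edgeR adjusted p 0.2115 for Tnfsf8 and 0.5246 for Tnfsf11, and without the library block, at 0.1356 and 0.1673. Tnfsf11 was also lost with DESeq2 (adjusted p 0.1037). Within C the Tnfsf8 ratio of Foxp3 to other Cd4 barcodes was 0.603 [0.429, 0.829], with most of the Foxp3 UMIs from 1 barcode. In T3 the Tnfsf8 level of Foxp3 barcodes (113 CPM) lay above that of other Cd4 barcodes (97.1 CPM). Of 7 members, 1 was higher and 3 were lower, where 7.26% of genes passed as higher and 4.92% as lower, and Cd28 (log2 fold change 0.02, edgeR adjusted p 0.9616), Cd86 (0.1311) and Icosl (0.3627) did not pass.

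Between libraries, Foxp3 barcodes had 2 of 6 members higher (4.42% of genes) and 1 lower (3.53%) in T3 than in T1, 1 of 6 lower in T1 than in C (2.53%) and 0 of 5 past the size rule in T3 over C (9.94% in either direction). Cd40lg was higher in T3 than in T1 (3.34 [1.55, 7.02]; 14 and 19 UMIs), as was Tnfsf8 (2.16 [1.45, 3.17]; 41 and 86 UMIs), and Cd86 was lower (1 and 28 UMIs), a call lost in barcodes without neutrophil markers. Tnfsf8 was lower in T1 than in C (0.448 [0.306, 0.664]), but 66.7% of the 42 UMIs in C came from 1 barcode, and without the barcode with the most UMIs in each library the log2 ratio was −0.01.

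**Figure D4:**
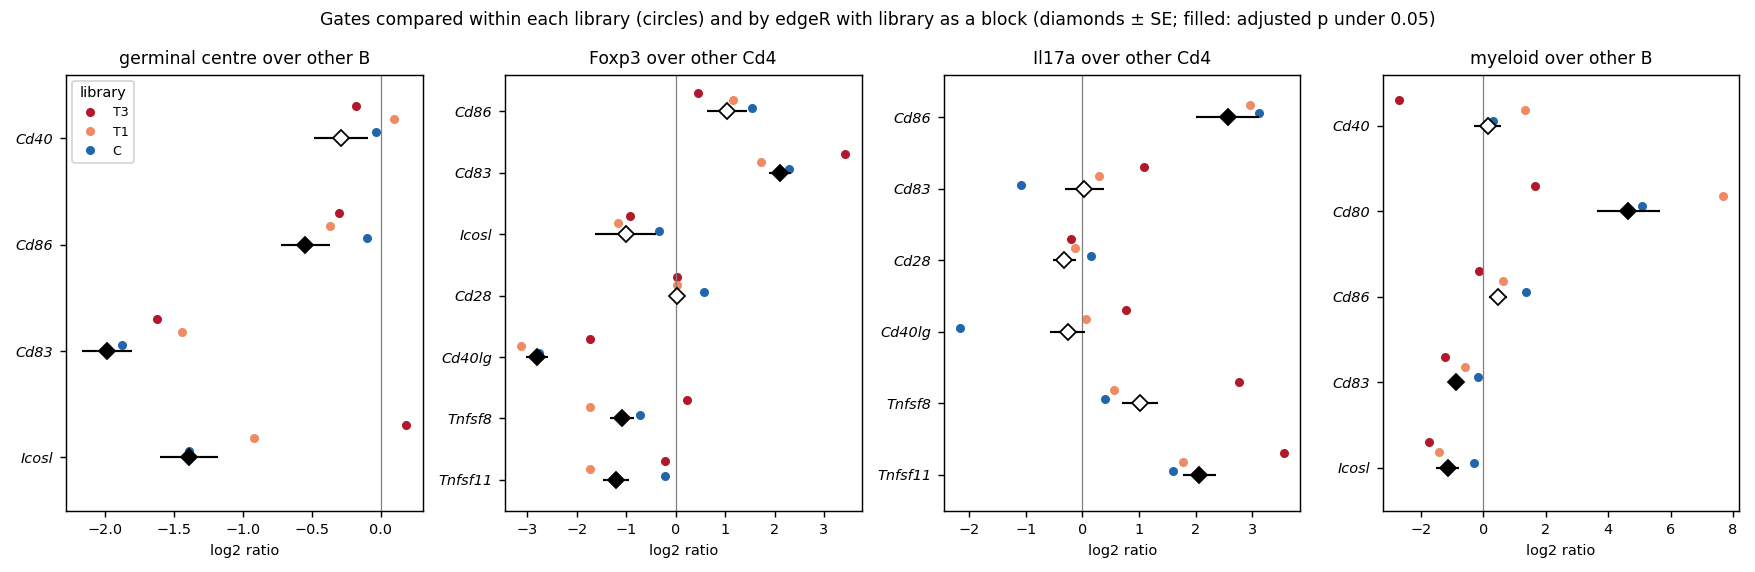
Log2 ratios between gates for the members that entered each test: circles are ratios of CPM within T3, T1 and C, and diamonds are edgeR log2 fold changes with library as a block (± SE, filled where the adjusted p was under 0.05). Cd83 and Icosl lie left of 0 in germinal centre over other B, Cd40lg left and Cd83 right in Foxp3 over other Cd4, and Tnfsf11 right of 0 in all 3 libraries in Il17a over other Cd4. Cd86 in the Il17a gate has no circle for T3, where it had 0 UMIs. Cd86 in the Il17a gate and Cd80 in the myeloid gate are drawn with filled diamonds, but no test is read for either.

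The partners of the members differed most in T1. Over all CD3-positive barcodes, Icos, the receptor of ICOS ligand, stood at 231 CPM in T3, 437 CPM in T1 and 117 CPM in C. Ctla4, the inhibitory receptor that competes with CD28 for CD80 and CD86, stood at 205, 602 and 159 CPM, and Tnfrsf4, the OX40 receptor whose ligand is Tnfsf4, at 115, 318 and 73.8 CPM. Of the 4 partners with enough UMIs, these 3 were higher in T1 than in C, where 2.65% of all genes were, with a list median log2 ratio of 1.91 against −0.08 over all genes tested. In T3 over C 1 of 4 was higher, Tnfrsf8, with 15 and 8 UMIs, where 4.66% of all genes were. T1 had the most Foxp3 barcodes (13.1% of CD3-positive barcodes, against 3.88% in T3 and 2.96% in C), and these held Icos at 807, 1148 and 648 CPM in T3, T1 and C. Within Cd4 barcodes outside that gate, Icos stood at 317, 506 and 256 CPM and Ctla4 at 231, 534 and 252 CPM. Tnfrsf8, the CD30 receptor, had 15, 18 and 8 UMIs in CD3-positive barcodes. Tnfrsf11a, the RANKL receptor, had 4, 3 and 3 UMIs in myeloid barcodes and 1, 2 and 4 in CD3-positive ones, and its decoy Tnfrsf11b had 0 in both.

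Genes of other costimulatory pairs were counted in the same way. Of 14 genes with enough UMIs in CD3-positive barcodes, 1 was higher in T1 than in C, Tnfrsf9 (76.6 and 31.3 CPM), which encodes 4-1BB, and 0 were lower, where 2.65% of all genes were higher and 3.74% lower. In T3 over C, 1 was higher, Tnfrsf25, and 4 were lower, among them Cd48 (98.8 and 234 CPM) and Cd226 (37.9 and 77.4 CPM), which encode adhesion receptors of T cells, where 4.66% of all genes were higher and 10.5% lower. The list median was −0.21 for T3 over C, against −0.14 over all genes tested. Of the 15 genes of CD28 signalling, 0 passed in T1 over C and 1 in T3 over C, Grap2, an adaptor of the receptor complex, at 226 and 91.9 CPM.

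Members were then read together in the same barcodes, after drawing each to 2000 UMIs. Among Cd4 barcodes with Tnfsf8, 18.2% in T3 (8 of 44), 16.7% in T1 (18 of 108) and 18.8% in C (12 of 64) also had Tnfsf11, against 3.5%, 12.0% and 7.64% of those without Tnfsf8. The intervals did not overlap in T3 ([8.19, 32.7] and [1.93, 5.80]) and overlapped in T1 and C. Among B barcodes outside the germinal centre gate, 23.3% of those with Cd83 also had Cd86 in T3, 17.96% in T1 and 17.5% in C, against 20.3%, 16.6% and 11.4% of those without, and C alone had intervals that did not overlap ([15.6, 19.5] and [9.17, 13.9]). Cd86 with Icosl and Cd86 with Cd40 had overlapping intervals in each library.

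Over the same 24 points, the genes with the levels most like each member were described by Pearson r, with no test. Cd40 was most like March1, a regulator of MHC class II and CD86 turnover (r = 0.947), Cd86 most like H2-DMa and H2-Ab1, genes of MHC class II presentation (0.938 and 0.928), and Icosl most like Ciita, the master regulator of MHC class II (0.949). Cd83 was most like Irf5, a transcription factor of B and myeloid cells (0.902). Cd28 was most like the T-cell receptor signalling genes Lat and Cd247 (0.992 and 0.990). Cd40lg was most like Tnfsf8 (0.895), Tnfsf8 most like Stk39 and Il18r1, the interleukin 18 receptor (0.954 and 0.939), and Tnfsf11 most like Podnl1 and Espn (0.946 and 0.924). The points fall into B, myeloid and T-cell gates, which every member's levels share.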

How the data were processed

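Each of the 3 libraries has 1 deposited matrix of raw UMI counts, which are whole numbers that the authors had not scaled. GRCm38 is the build, and Seurat 3.1.4, Cell Ranger 3.1.0 and CASAVA 1.8 are the tools, that the submitters' processing notes list, with no role for any. Every deposited barcode held at least 500 UMIs. The members, gene lists and gates were chosen with earlier results of these data known.

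Barcodes with at least 200 genes, at most 20% mitochondrial and at most 0.5% haemoglobin UMIs were kept. No doublet caller was run, and mixed barcodes were set aside. UMIs were summed per gate and library (Python 3.11.15, numpy 2.4.6, scipy 1.17.1). Ratios have exact conditional 95% intervals, levels exact Poisson and shares exact Clopper-Pearson intervals. UMIs were drawn down to 1000 per barcode (2000 for members found together), and shallower barcodes were left out. Gates were tested with edgeR 4.0.16 (quasi-likelihood, TMM, filterByExpr, library block, R 4.3.3), with Benjamini-Hochberg adjustment over all genes tested and DESeq2 1.42.0 as an alternative. The block pairs the 2 gates of each library, and the 3 libraries are of 3 different conditions. The spread behind these p-values is estimated partly from other genes. For germinal centre over other B it came almost wholly from other genes. There the p-values do not measure a gene's own spread over the 3 libraries. Likeness used log2(CPM + 10) over 9445 genes with at least 200 UMIs. All 10 members are described, with the genes among the 3 most like each, and list members are named where a result turns on them. The code was tested on simulated data.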

Additional observations from a re-analysis of the deposited data

Results flagged for a closer look

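Barcodes with more than 20% mitochondrial UMIs, which entered no comparison above, held T-cell members at higher levels in T3 than in C. The ratio of T3 over C was 10.7 [6.16, 20] for Cd40lg (75.9 and 7.07 CPM), 3.80 [3.31, 4.38] for Cd28 (535 and 141 CPM) and 2.18 [1.65, 2.87] for Tnfsf8 (103 and 47.2 CPM), and 7.36% of all genes tested passed the size rule as higher there. In the same barcodes the B-borne members were lower in T3 than in C, with Cd83 at 159 and 281 CPM, Cd86 at 52.6 and 74.0 CPM and Cd40 at 17.2 and 30.2 CPM. This set was not divided into B and T cells, and the part of its make-up in these ratios was not tested.

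Tnfsf8 was higher than in C in one gate and lower in another. In T1 over C its log2 ratio in B barcodes outside the germinal centre gate exceeded that in Foxp3 barcodes by 2.87 and that in Cd8 barcodes by 2.91, the B value resting on 16 and 4 UMIs. In T3 over C its log2 ratio in Il17a barcodes exceeded that in other Cd4 barcodes by 2.36 and that in Cd8 barcodes by 2.41. The Foxp3 value rested largely on a single barcode of C, and without the richest barcodes that ratio was near equality. Both Cd8 calls were lost by the median-ratio method. With Leiden clusters the T1 over C ratio of the whole B gate turned to lower. Most Tnfsf8 UMIs of the Il17a gate in C also came from a single barcode. These differences were not tested.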

How the results depend on the processing

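No paired analysis was possible because each group has 1 library. The 2 alternatives chosen after seeing the data were barcodes without neutrophil markers and ratios without the barcode richest in a member. Counts of members past the size rule are given for T1 over C, T3 over C and T3 over T1; they were 1, 1 and 0 in the B gate and 1, 1 and 4 in the CD3-positive gate. A fold threshold of 1.5 gave 2 for T3 over C and 1 for T3 over T1 in the B gate, and 4 for T1 over C and 2 for T3 over C in the CD3-positive gate. A minimum of 100 UMIs gave 0 for T1 over C and T3 over C in the B gate and 0 for T3 over C in the CD3-positive gate. Stricter gates gave 0 for T1 over C and T3 over C in the B gate, and a mitochondrial limit of 10%, at least 1000 UMIs per barcode and Leiden clusters each gave 0 for T1 over C there. Leiden clusters also gave 1 for T3 over T1 in the B gate and 2 for T3 over C in the CD3-positive gate. With haemoglobin-rich barcodes kept, the CD3-positive gate had 0 for T3 over C and 2 for T3 over T1, and Cd40 in T3 over T1 turned to a log2 ratio of 0.26, from −1.55. With mixed barcodes counted in it, it had 4 for T3 over C and 1 for T3 over T1. Tnfsf8 in T1 over C in the B gate turned to −0.32, from 1.84, with Leiden clusters. The cause was not tested in any of these. The share of all genes called under each alternative is not given, so nothing about the members is read from these counts alone. In tests between gates without the library block, 1 member was higher and 1 lower in Foxp3 barcodes, where 271 and 175 of 8614 genes were. With the block 1 was higher and 3 lower, where 625 and 424 genes were. Without C, T1 and T3 in turn, 1 was higher each time and 3, 1 and 3 were lower. Of 8774, 7973 and 8701 genes, 522, 403 and 675 were then higher and 338, 265 and 460 lower. In Il17a barcodes Tnfsf11 passed with any library left out, and Tnfsf8 passed without T1. In myeloid barcodes Cd83 and Icosl passed without C and without T3, and neither passed without T1. Cd86 passed there without T3. Cd86 in Il17a and Cd80 in myeloid barcodes are left aside, since no test is given for them. Of the ratios past the rule, Tnfsf11 in T1 over C, Cd40lg in other CD3-positive barcodes and Tnfsf8 in Il17a barcodes of T3 kept their call under every alternative run for them. Leiden clusters were run for the whole B and CD3-positive gates only. The richest barcode was left out only in the Foxp3, Il17a, other Cd4 and myeloid gates. Depth limits Cd80, Tnfsf4 and every myeloid value.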

Other observations

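Outside the gates, barcodes with no CD3 UMI but at least 2 innate lymphoid or natural killer markers carried Tnfsf11 without Cd40lg. There were 21 such barcodes in T3, 95 in T1 and 173 in C. Tnfsf11 had 4 UMIs in T3 (48.6 CPM), 50 in T1 (79.8 CPM) and 88 in C (74.3 CPM), in 3, 27 and 38 barcodes. Cd40lg had 0 UMIs in all of them. Cd28 had 9, 70 and 148 UMIs (109, 112 and 125 CPM), and Tnfsf8 had 1, 3 and 13 UMIs.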
